A study of Mus musculus with 16 samples.

Results

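The 10 genes described here are ones that neurons use for their cytoskeleton, their calcium channels and their peptide signals, measured in livers of mice that lost the chromatin remodelling subunits Arid1a or both Arid1a and Arid1b, and in liver tumours. The genes are Nefm, Nefl, Nefh, Tubb2b, Tubb3, Bex1, Bex2, Cacna1b, Cck and Tceal5, found by symbol among the 55291 genes of the count table. All 10 had at least 1 count in the 16 libraries, as did 36881 genes of the whole table. Nefm, Tubb2b, Cck, Bex1 and Cacna1b were chosen by their counts in these same libraries, where they were high with loss of both genes or in tumours. Their values in those comparisons are therefore given as a description without a test, and the other 5 genes, together with all 10 in the remaining comparisons, were tested.

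Polyadenylated RNA was sequenced from 8 groups with 2 libraries each, which the labels call biological replicates. The groups are Arid1a/b DKO livers at 9 days after tamoxifen (both genes lost, DMSO vehicle), tumours labelled Arid1a KO/BcatEXON with no time or treatment label, Arid1a KO livers given an agonist that the labels call NR1L3 agonist, vehicle-treated Arid1a KO livers at 9 days and at 30 days, WT livers given the agonist, and vehicle-treated WT livers at 9 days and at 30 days. The agonist livers are taken as 30-day livers, although the titles of the WT agonist livers say 9 days. Neither the promoter that drives the deletion, nor strain, sex or age, nor the number of tumours per mouse is given in the sources used here. The cell type tag says hepatocytes, but the RNA came from whole liver or whole tumour, so fewer cells of a type and less RNA per cell cannot be told apart.

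Neurofilaments are the intermediate filaments of axons, assembled from a light chain (Nefl), a medium chain (Nefm) and a heavy chain (Nefh). Tubb2b and Tubb3 are beta-tubulins of growing neurons, and Cacna1b is the pore-forming subunit of the N-type calcium channel that triggers transmitter release at nerve endings. Cck encodes the precursor of cholecystokinin, a peptide made by brain neurons and by endocrine cells of the gut, and the Bex and Tceal genes encode small acidic proteins from a cluster on the X chromosome that are abundant in brain. In cells outside the nervous system many such genes are held silent by the repressor REST and its partners, and hepatocytes are not known to use neurofilaments or N-type channels. Arid1a and Arid1b encode alternative subunits of the BAF chromatin remodelling complex, which itself exchanges several subunits when neurons form.

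The libraries held 7569779 to 47768610 counts, so that 3 counts correspond to 0.0481 to 0.363 CPM, the counts scaled to a common library size. Arid1a was read at 68.7 to 102.6 CPM in the Arid1a/b DKO and Arid1a KO livers, against 72.2 to 104.7 CPM in WT livers, and it was not called lower in any liver comparison. Counts are summed over whole genes, and no source used here names the deleted exons, so the Arid1a count does not check those labels. Arid1b was lower in Arid1a/b DKO than in WT livers (log2 fold change -0.85, SE 0.28, adjusted p = 0.0439, edgeR quasi-likelihood test with Benjamini-Hochberg adjustment), at 24.5 and 25.7 CPM against 38.0 and 52.8 CPM. The tumours stood apart from the livers in sex-linked genes: Xist, the RNA of the inactive X chromosome, had 354 and 53.8 CPM in tumour replicates 1 and 2 and at most 0.767 CPM in the 14 livers. The summed level of 4 genes of the Y chromosome was 1.82 and 100.2 CPM in tumour replicates 1 and 2 and 156 to 266 CPM in the livers. Sex and tumour therefore cannot be told apart, and tumour replicate 2 carries both signals. Tumour replicate 1 also held 2578 genes with a count that had none in any liver, against 597 such genes in tumour replicate 2, although it was the shallowest library.

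Nefm, the medium neurofilament chain, had 28.0 and 29.3 CPM in the Arid1a/b DKO livers and no count in the 6 WT libraries. These 2 DKO libraries held 1170 and 1827 Nefm counts. The mean was 28.6 ± 0.934 CPM (SD, n = 2) in DKO livers. Here and below, ratios and bounds compare the summed counts of the groups, each divided by the summed scaled library sizes, so the deeper library weighs more and they differ from ratios of mean CPM. By this measure Nefm in DKO livers was at least 420-fold above 3 counts in the 9-day WT livers. Vehicle-treated Arid1a KO livers were close to the WT level, with 0 and 0.0802 CPM at 9 days and 0.114 and 0.0730 CPM at 30 days, from at most 2 counts a library. The DKO to Arid1a KO ratio at 9 days was 553, with a 95% counting interval of 153 to 4565. In the tumours Nefm had 4.76 and 0 CPM, so that only tumour replicate 1 carried it.

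Nefm was also present in livers that lost Arid1a alone and received the agonist. It had 5.20 and 2.32 CPM there, from 74 and 70 counts, against 0 in both WT agonist livers. This difference passed the test (fitted log2 fold change 9.46, SE 1.11, adjusted p = 0.00618), and the level was at least 35.9-fold above the WT floor. The agonist livers also exceeded the vehicle-treated Arid1a KO livers of 30 days, by a ratio of 39.1 with a counting interval of 13.1 to 192 (log2 5.37, SE 0.72, adjusted p = 0.0196). The first call was lost without WT agonist replicate 2 (adjusted p = 0.0792) and with all 16 libraries in the fit (0.0948). The second was lost without Arid1a KO 30-day replicate 1 (0.0980), without 30-day replicate 2 (0.0778), without agonist replicate 1 (0.0596), with all 16 libraries (0.279) and with only the compared libraries in the fit (0.135).

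**Figure D1:**
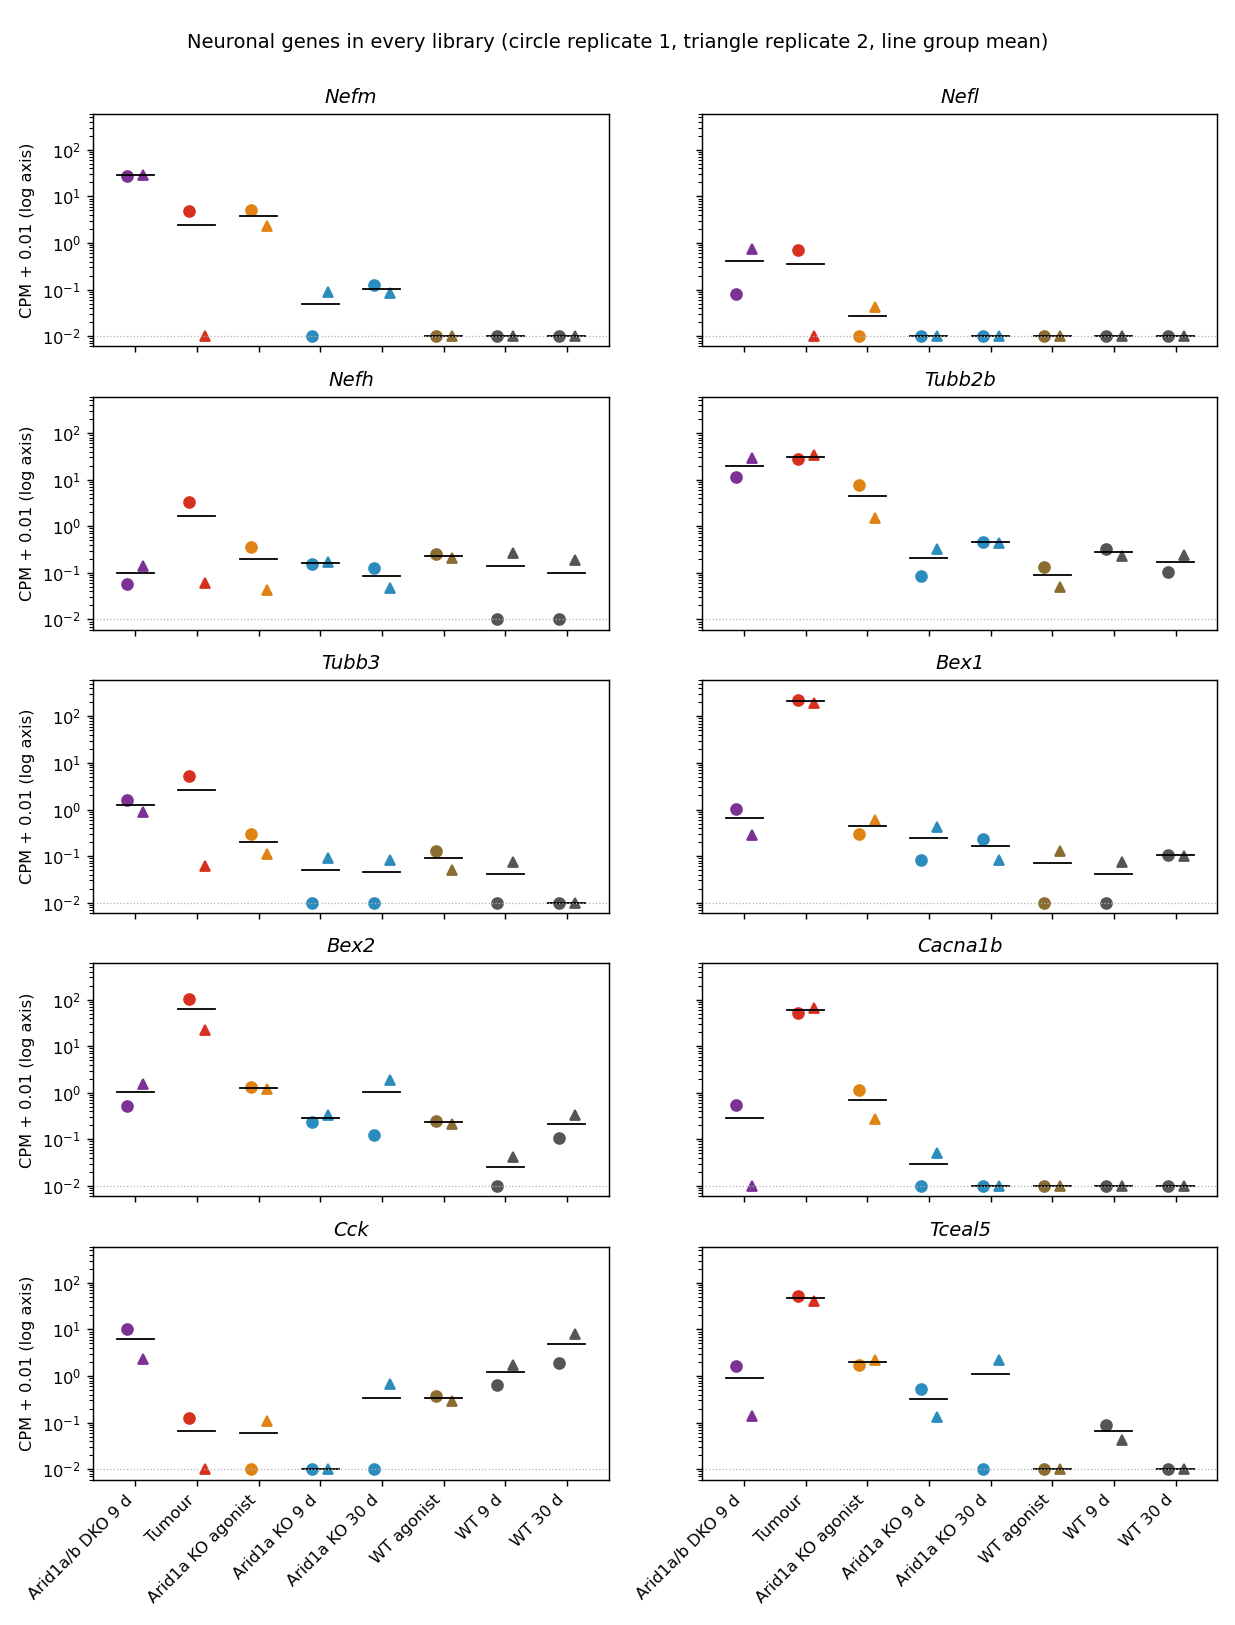
Level of each of the 10 genes in every library, as CPM plus 0.01 on a log axis; circles are replicate 1, triangles replicate 2, lines group means, and points on the dotted line have no count. Nefm is at 28.0 and 29.3 CPM in Arid1a/b DKO livers and at 0 in all WT livers, while Bex1, Bex2, Cacna1b and Tceal5 are highest in the tumours.

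The other neurofilament chains were scarce. Nefl, the light chain, had 0.0717 and 0.737 CPM in Arid1a/b DKO livers, from 3 and 46 counts, and no count in any WT or vehicle-treated Arid1a KO liver. Its summed DKO counts, of which replicate 2 holds 46 of 49, were at least 6.87-fold above the WT floor by the same measure, but Nefl did not pass the filter on low counts for the liver fit and was not tested there. The tumours had 0.681 and 0 CPM of Nefl (against Arid1a KO log2 5.68, adjusted p = 0.120). Nefh, the heavy chain, had 0.0478 and 0.128 CPM in DKO livers, against 0 and 0.255 CPM in 9-day WT livers, so those groups overlapped. Tumour replicate 1 had 3.29 CPM of Nefh and tumour replicate 2 had 0.0505 CPM. Nefh passed the filter in neither fit.

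Nefm on chromosome 14 (GENCODE M21, GRCm38, chr14:68082590-68124846, minus strand) overlaps Nefl (chr14:68083863-68089095, plus strand) on opposite strands. They share 1108 exonic bases, 32.8% of Nefl and 19.2% of Nefm. The strand setting of the counting is not given in the sources used here, and without strand the reads of that stretch could not be assigned to Nefm or Nefl. Nefh lies apart, at chr11:4938754-4948064 on the minus strand, and shares no exon with another gene.

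The genes whose group means followed Nefm most closely over the 8 groups were Tnc, AI506816 and Acta2, among 14840 genes compared. The measure is the root mean square difference of centred log2(CPM + 0.5) group means, which was 0.49 for Tnc, 0.63 for AI506816 and 0.66 for Acta2. Tnc, an extracellular matrix glycoprotein, averaged 39.1 ± 15.0 CPM in Arid1a/b DKO livers, 8.49 ± 4.19 CPM in Arid1a KO agonist livers and 0.616 ± 0.0745 CPM in 9-day WT livers (SD, n = 2 each). Acta2, the smooth muscle actin of activated stellate cells, averaged 63.0 ± 31.4 CPM in DKO livers and 1.42 ± 0.158 CPM in 9-day WT livers. These are resemblances among 8 means that share the libraries.

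Tubb2b had 11.4 and 28.7 CPM in Arid1a/b DKO livers, against 0.322 and 0.223 CPM in 9-day WT livers, a ratio of 86.7. The tumours had 28.0 and 34.4 CPM, a ratio of summed counts of 145 to the vehicle-treated WT livers and of 96.7 to the vehicle-treated Arid1a KO livers. In the Arid1a KO agonist livers Tubb2b reached 7.66 and 1.46 CPM, against 0.121 and 0.0400 CPM in WT agonist livers. That comparison, which did not enter the choice of the gene, passed the test (log2 6.06, SE 1.11, adjusted p = 0.0146; ratio 57.3 with a counting interval of 15.6 to 477). The call was lost without Arid1a KO agonist replicate 1 (adjusted p = 0.0562), without WT agonist replicate 1 (0.0622), without WT agonist replicate 2 (0.200) and with only the compared libraries in the fit (0.0593).

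Without the agonist, Tubb2b stayed at 0.0741 and 0.321 CPM in Arid1a KO livers at 9 days and at 0.457 and 0.438 CPM at 30 days. The agonist over vehicle ratio in Arid1a KO livers was 7.78 and was not called (log2 3.32, SE 0.84, adjusted p = 0.112). DESeq2 called it (adjusted p = 0.00507), as did the fit without a filter on low counts (1.53e-07) and the fit without Arid1a KO agonist replicate 2 (0.0392). The difference between the agonist effects in Arid1a KO and in WT livers was 4.77 on the log2 scale, with an unadjusted p of 0.0175 and an adjusted p of 0.756. The fit without a filter on low counts called this difference too (adjusted p = 0.00579).

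Tubb2b (chr13:34126748-34130466, minus strand) shares 36.9% of its 50-base stretches with other genes, most of them with Tubb2a, its near-identical neighbour (31.3%). How the counting treated reads that match both is not given in the sources used here, so Tubb2b and Tubb2a counts are not independent. Tubb2a itself had 496 and 592 CPM in Arid1a/b DKO livers, against 28.2 and 20.0 CPM in 9-day WT livers (log2 4.51, SE 0.91, adjusted p = 0.00536). Among all genes the group means of C1qtnf6, Cgref1 and Psat1 lay closest to those of Tubb2b (root mean square difference 0.53, 0.56 and 0.58). Psat1, an enzyme of serine synthesis, averaged 21.9 ± 7.61 CPM in DKO livers, 32.6 ± 19.3 CPM in tumours and 1.42 ± 0.872 CPM in 9-day WT livers (SD, n = 2 each).

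Tubb3, the beta-tubulin most used as a neuronal marker, rose in Arid1a/b DKO livers at a low level. It had 1.63 and 0.866 CPM there, against 0 and 0.0802 CPM in 9-day Arid1a KO livers and 0 and 0.0637 CPM in 9-day WT livers. Both DKO libraries lay above all of these. The difference was 4.68 on the log2 scale against WT (SE 1.0, adjusted p = 0.00888) and 4.50 against Arid1a KO (SE 1.0, adjusted p = 0.0119). Tubb3 passed the filter on low counts only through the DKO libraries, so it had to differ. These tests therefore describe the gene and are no support for a rise. The counts gave ratios of 25.7 (counting interval 6.95 to 214) and 22.5 (6.10 to 188) for those comparisons. The call against WT was lost without WT 9-day replicate 1 (adjusted p = 0.0620) and with all 16 libraries (0.0736). The call against Arid1a KO was lost without DKO replicate 1 (0.0561), without 9-day Arid1a KO replicate 1 (0.0795) or replicate 2 (0.0517), and with all 16 libraries (0.0922).

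In the tumours Tubb3 had 5.10 and 0.0505 CPM, and the second value lies within the range of the livers. The fit called it higher against Arid1a KO (log2 5.46, SE 1.33, adjusted p = 0.00948) and against WT vehicle livers (log2 7.24, SE 1.60, adjusted p = 0.00514). Without tumour replicate 1 the differences became -0.02 and 1.79 (adjusted p = 0.9996 and 0.462), and limma-trend did not call the difference from Arid1a KO (0.0591). The tumour calls of Tubb3 thus rest on tumour replicate 1.

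Of the 5 genes not chosen for a rise, 3 passed the filter of the liver fit, and 2 of these 3, Tubb3 and Bex2, were higher in Arid1a/b DKO than in WT livers, beside 12.6% of all genes tested called higher, 13.8% called lower and 26.4% called in either direction. Against 9-day Arid1a KO livers 1 of the 3, Tubb3, was higher, beside 9.92% of all genes called higher, 12.1% lower and 22.0% in either direction. In all, 8 of the 10 members passed the filter of the liver fit and 9 of 10 that of the tumour fit. Tubb3 passed the liver filter only through the DKO libraries in which it is high, so it had to differ. Of the 2 tested genes that pass without the DKO libraries, Bex2 was higher than in WT livers and Tceal5 was not called. Neither was called against Arid1a KO.

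Bex1, Bex2, Tceal5 and Cacna1b form another pattern, with their highest levels in the tumours. Upstream sequences are shown for them because they were high in the same libraries, and for Cck as the member with the opposite pattern in tumours. Each is the 250 bases before the gene start from RefSeq (GRCm38.p6), 5′ to 3′ on the strand of the gene. Of the 10 members, 6 were matched in the table; Tubb3 is not shown because its window overlaps its own exon. Tceal5 has 3 starts there, of which the most upstream is shown. Capitals mark matches on either strand that lie wholly within these bases. The motifs searched were the TATA box (letters TATAAA), the CCAAT box, the GC box (letters GGGCGG), the cAMP response element (letters TGACGTCA), a variant of that element (letters TGCGTCAG), the E-box (letters CACGTG), the left part of the REST site (letters TCAGCACC) and its right part (letters GGACAG), and a pair of TCF motifs (letters CTTTGAT for the first and letters CTTTGAA for the other).
Bex1 (chrX:136215514-136215763, minus strand): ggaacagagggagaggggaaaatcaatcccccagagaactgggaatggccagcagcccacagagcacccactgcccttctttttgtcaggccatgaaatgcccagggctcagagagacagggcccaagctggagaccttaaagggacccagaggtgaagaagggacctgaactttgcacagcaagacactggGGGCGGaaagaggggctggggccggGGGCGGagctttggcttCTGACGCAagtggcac
Bex2 (chrX:136068237-136068486, minus strand): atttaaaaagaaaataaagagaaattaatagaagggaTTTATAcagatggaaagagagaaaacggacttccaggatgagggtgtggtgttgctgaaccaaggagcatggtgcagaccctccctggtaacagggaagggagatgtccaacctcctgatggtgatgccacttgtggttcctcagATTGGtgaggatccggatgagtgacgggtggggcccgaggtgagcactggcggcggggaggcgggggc
Tceal5 (chrX:136203885-136204134, minus strand): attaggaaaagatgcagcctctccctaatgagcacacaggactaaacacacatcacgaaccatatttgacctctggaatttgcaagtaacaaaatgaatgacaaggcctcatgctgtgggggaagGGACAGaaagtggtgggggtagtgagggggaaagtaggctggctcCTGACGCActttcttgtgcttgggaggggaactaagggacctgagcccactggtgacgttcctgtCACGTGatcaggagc
Cacna1b (chr2:24763153-24763402, minus strand): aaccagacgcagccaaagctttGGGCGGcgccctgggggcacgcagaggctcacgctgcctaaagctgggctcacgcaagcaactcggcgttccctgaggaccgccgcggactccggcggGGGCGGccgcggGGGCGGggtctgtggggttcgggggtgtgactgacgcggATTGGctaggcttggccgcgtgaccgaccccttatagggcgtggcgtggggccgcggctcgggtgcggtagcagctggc
Cck (chr9:121495695-121495944, minus strand): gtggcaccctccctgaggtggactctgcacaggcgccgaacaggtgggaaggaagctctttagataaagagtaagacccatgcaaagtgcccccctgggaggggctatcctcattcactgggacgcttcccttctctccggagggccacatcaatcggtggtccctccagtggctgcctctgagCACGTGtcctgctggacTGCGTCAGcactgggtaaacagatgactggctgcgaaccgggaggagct

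The variant TGCGTCAG is known from the Cck promoter, where it begins at position -49, counted from -1 at the base just before the start; its match there is therefore no finding. The same letters, read on the opposite strand, begin at -16 in Bex1 and at -80 in Tceal5. Counted from the next Tceal5 start the match is at -232, and the window of the other start holds neither it nor the E-box. In all 32851 RefSeq windows of 300 bases, 0.542% hold it. Cck, Bex1 and Tceal5 also hold the E-box CACGTG, present in 7.15% of windows; in Bex1 it crosses the start and is not in capitals, and the same is true of the GGGCGG of Bex2. The Cacna1b window has 35 CpG pairs, against 12 in Bex2, 10 in Cck, 8 in Bex1, 5 in Tceal5 and a median of 7 over all windows. The left part of the REST site was found in Tubb3 alone among the 6 genes, at -121 on the opposite strand (1.65% of windows), and Tubb3 also holds the right part at 12 (22.2%). These matches are letters in a window and were not tested for use.

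Bex1 was the most abundant member per length in the tumours, at 176 ± 19.5 CPM per kb (SD, n = 2). It had 225 and 193 CPM in the tumours, and at most 1.03 CPM in any of the 14 livers. The ratio of summed counts was 1008 to the vehicle-treated Arid1a KO livers and 3093 to the vehicle-treated WT livers. In Arid1a/b DKO livers Bex1 had 1.03 and 0.273 CPM, against 0 and 0.0637 CPM in 9-day WT livers, a ratio of 12.6 with a counting interval of 3.35 to 107. The DKO to Arid1a KO ratio was 2.01, and the replicates of those groups overlapped.

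Bex2 is not among the genes chosen for a rise, although the members were picked with earlier results of these data known. It had 100.5 and 22.8 CPM in the tumours. It was higher there than in vehicle-treated Arid1a KO livers (log2 6.73, SE 0.74, adjusted p = 6.94e-05) and than in vehicle-treated WT livers (log2 9.55, SE 0.90, adjusted p = 2.17e-05). The tumour libraries differ among themselves, yet both lie above every liver. Bex2 was also higher in Arid1a/b DKO livers, at 0.502 and 1.54 CPM, against 0 and 0.0318 CPM in 9-day WT livers (log2 5.24, SE 1.31, adjusted p = 0.0154; ratio 49.2, counting interval 8.66 to 1961). That call was lost without DKO replicate 2 (adjusted p = 0.0690), without WT 9-day replicate 1 (0.0883) and without WT 9-day replicate 2 (0.0865). Against 9-day Arid1a KO livers, with 0.222 and 0.321 CPM, the DKO difference of 1.87 was not called (adjusted p = 0.170). Other livers with loss of Arid1a alone reached the DKO level. Bex2 had 0.114 and 1.90 CPM in vehicle-treated Arid1a KO livers at 30 days, and 1.33 and 1.19 CPM with the agonist. Neither group was called against its WT group in the same fit (adjusted p = 0.501 and 0.182).

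Tceal5 had 52.4 and 40.8 CPM in the tumours. It was higher there than in vehicle-treated Arid1a KO livers (log2 6.25, SE 1.0, adjusted p = 0.00124) and than in vehicle-treated WT livers (log2 11.42, SE 1.45, adjusted p = 0.000279). In Arid1a/b DKO livers the libraries were uneven, at 1.65 and 0.128 CPM against 0.0804 and 0.0318 CPM in 9-day WT livers, and the difference was not called (log2 4.07, adjusted p = 0.143). Arid1a KO agonist livers had 1.76 and 2.18 CPM, against 0 in WT agonist livers, at least 22.7-fold above the floor but not called (log2 8.56, SE 2.78, adjusted p = 0.117). DESeq2 called that difference (0.0114), as did the fits without a filter (9.78e-09) and with only the compared libraries (0.0302). At 30 days the vehicle-treated Arid1a KO livers had 0 and 2.23 CPM, so that 1 library of that pair holds all of the signal.

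Cacna1b, the N-type calcium channel, had 52.6 and 66.7 CPM in the tumours and no count in the 6 WT libraries. By summed counts the tumours were at least 1586-fold above the floor of the vehicle-treated WT livers. Arid1a/b DKO livers had 0.550 and 0 CPM, so that replicate 1 alone carried 23 counts. Arid1a KO agonist livers had 1.12 and 0.265 CPM, from 16 and 8 counts, at least 5.99-fold above the floor of the WT agonist livers. That difference was not called (log2 6.97, adjusted p = 0.266), while the fit without a filter on low counts called it (0.00607). Per length the tumour levels were 68.3 ± 60.9 CPM per kb for Bex2, 36.9 ± 6.48 for Tceal5, 13.6 ± 1.96 for Tubb2b and 6.0 ± 1.0 for Cacna1b (SD, n = 2 each). Of these 4 neighbours in the order, Bex2 and Tceal5 do not differ beyond their spread.

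Of the 5 genes not chosen for a rise, 4 passed the filter of the tumour fit. In that fit 3 of these 4, Bex2, Tceal5 and Tubb3, were higher in tumours than in vehicle-treated Arid1a KO livers, beside 18.0% of all genes tested called higher, 15.2% lower and 33.1% in either direction. The count was also 3 of 4 against vehicle-treated WT livers, beside 20.5% of all genes called higher, 16.1% lower and 36.6% in either direction. These comparisons share the tumour libraries. Bex2 and Tceal5 were called with either tumour replicate left out, and Tubb3 was not called without replicate 1.

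Bex1, Bex2 and Tceal5 lie within a stretch of 644.9 kb on chromosome X that holds 13 protein-coding genes. Leaving out Bex1, which was chosen for its tumour level, 8 were tested and 8 were higher in tumours than in vehicle-treated Arid1a KO livers. Tceal7 passed the filter only through the tumours, and 7 of the 7 others were higher. Over all of chromosome X 21.6% of 533 tested genes were higher. Bex4 had 105.8 and 90.2 CPM in tumours, against 0.114 to 0.547 CPM in the vehicle-treated Arid1a KO livers (log2 8.03, SE 0.54, adjusted p = 3.14e-06). Bex3 (log2 5.89) and Tceal9 (log2 3.83) were higher too. In Arid1a/b DKO livers 3 of 7 tested genes of the stretch other than Bex1 were higher than in WT livers (Bex2, Bex3 and Tceal9), against 18.2% of 512 genes of chromosome X. In Arid1a KO agonist livers 2 of 8, Tceal8 and Tceal9, were higher than in WT agonist livers, against 4.1% of the chromosome. Tceal8 had 46.2 and 42.2 CPM there, against 9.55 and 10.6 CPM in WT agonist livers (log2 2.13, SE 0.31, adjusted p = 0.00615).

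**Figure D2:**
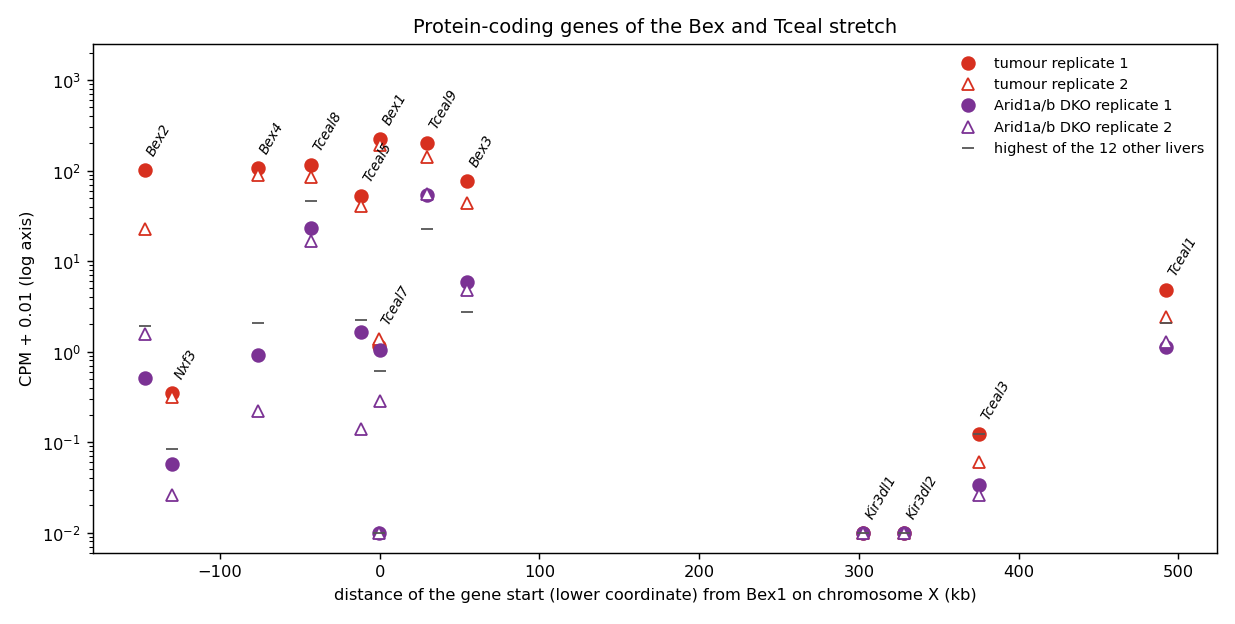
Level of the 13 protein-coding genes of the Bex and Tceal stretch, as CPM plus 0.01 on a log axis, against distance from Bex1 in kb; red symbols are tumours, purple symbols Arid1a/b DKO livers, and bars the highest of the 12 other livers. Bex1, Bex2, Bex3, Bex4, Tceal5, Tceal8 and Tceal9 lie above every liver in both tumours, while Kir3dl1 and Kir3dl2 have no count.

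These X-linked genes include close copies. Bex1 shares 21.1% of its 50-base stretches with other genes, chiefly Bex4, Bex2 shares 22.2%, chiefly with Bex3, and Tceal5 shares 25.4%, chiefly with Tceal6. Bex1 also overlaps 223 exonic bases of Tceal7 on the opposite strand, so the division of reads among these genes is uncertain. The genes nearest to Bex1 in pattern were Asb11 (root mean square difference 0.26), Muc13 (0.39) and Xist (0.48). Xist is the same RNA that sets the tumour libraries apart by sex, and its part in the Bex and Tceal levels was not tested. Tumour replicates 1 and 2 had 354 and 53.8 CPM of Xist and 225 and 193 CPM of Bex1.

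Cck, the cholecystokinin precursor, had counts in every WT library. It had 10.4 and 2.34 CPM in Arid1a/b DKO livers, no count in 9-day Arid1a KO livers, and 0.644 and 1.75 CPM in 9-day WT livers. By summed counts the DKO livers had 3.87 times the WT level and were at least 71.3-fold above the floor of the Arid1a KO livers. Without DKO replicate 1 the log2 difference from WT was 0.91, against 2.34 with both. In the tumours Cck had 0.113 and 0 CPM, a ratio of 0.0103 to the vehicle-treated WT livers.

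In every pair of Arid1a KO and WT groups the Arid1a KO libraries had less Cck than both WT libraries. At 9 days the values were 0 and 0 CPM in Arid1a KO livers and 0.644 and 1.75 CPM in WT livers, at least 18.4-fold lower. This was not called (log2 -7.90, SE 2.23, adjusted p = 0.195). At 30 days they were 0 and 0.657 CPM in Arid1a KO livers and 1.92 and 7.95 CPM in WT livers, a ratio of 0.0828 (log2 -3.56, SE 1.12, adjusted p = 0.287). With the agonist they were 0 and 0.0993 CPM in Arid1a KO livers and 0.363 and 0.280 CPM in WT livers, a ratio of 0.225 with a counting interval of 0.0397 to 0.873 (log2 -2.17, adjusted p = 0.504). DESeq2 called the first (adjusted p = 0.00703) and the second (0.0403), and so did the fit without a filter on low counts (2.50e-09 and 1.78e-07). Among WT livers those given the agonist had a Cck ratio of 0.050 to vehicle (log2 -4.01, SE 1.20, adjusted p = 0.707), called by the fit without a filter (4.46e-08).

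Cck (chr9:121489824-121495694, minus strand) shares no 50-base stretch with another gene. The genes closest to it in pattern were Med12l, Ppp1r9a and Col13a1, with root mean square differences of 0.57, 0.64 and 0.66. Ppp1r9a, a scaffold protein of synapses, averaged 34.0 ± 15.4 CPM in Arid1a/b DKO livers, 8.06 ± 1.65 CPM in 9-day Arid1a KO livers and 17.9 ± 5.22 CPM in 9-day WT livers (SD, n = 2 each). Per length the leading members in DKO livers were Tubb2b at 8.73 ± 5.34, Nefm at 4.95 ± 0.162 and Cck at 4.87 ± 4.35 CPM per kb, which do not differ beyond their spread.

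With loss of Arid1a alone and no agonist, none of the 8 tested members was called at 9 days, beside 0.269% of all genes called higher, 0.297% lower and 0.566% in either direction. None was called at 30 days, beside 0.286% higher, 0.230% lower and 0.516% in either direction. Cacna1b had no count in either group at 30 days, so it could not be called there. At an unadjusted p under 0.05 there were 2 of 8 at 9 days and 3 of 8 at 30 days. Of all 17831 genes, 1893 and 1681 had such a p at those times. DESeq2 called 1 member at each time, Cck. The 9-day WT libraries also serve in the comparison with Arid1a/b DKO livers. With the agonist, 2 of 8 members, Nefm and Tubb2b, were higher in Arid1a KO than in WT livers, beside 3.05% of all genes called higher, 1.91% lower and 4.95% in either direction. Bex2 (log2 2.53, adjusted p = 0.182) and Bex1 (log2 2.37, adjusted p = 0.264) were not called. Agonist over vehicle called 1 of 8, Nefm, in Arid1a KO livers, beside 0.550% of all genes called higher, 0.320% lower and 0.869% in either direction. In WT livers it called 0 of 8, beside 0.0280%. Nefm, Cacna1b and Tceal5 had no count in either WT group of that comparison, so they could not be called. At an unadjusted p under 0.05 there was 1 of 8, beside 653 of 17831 genes, and DESeq2 called 0. The test of the difference between these agonist effects called 0 of 8 members, beside 0.00561% of all genes. For Nefm, Cacna1b and Tceal5 it could not decide, because neither WT group had a count (fitted SE 9810, 24187 and 2174). There 1 of 8 had an unadjusted p under 0.05, beside 995 of 17831 genes, and DESeq2 called 0. The fit without a filter called this difference for 1 member, Tubb2b (adjusted p = 0.00579).

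**Figure D3:**
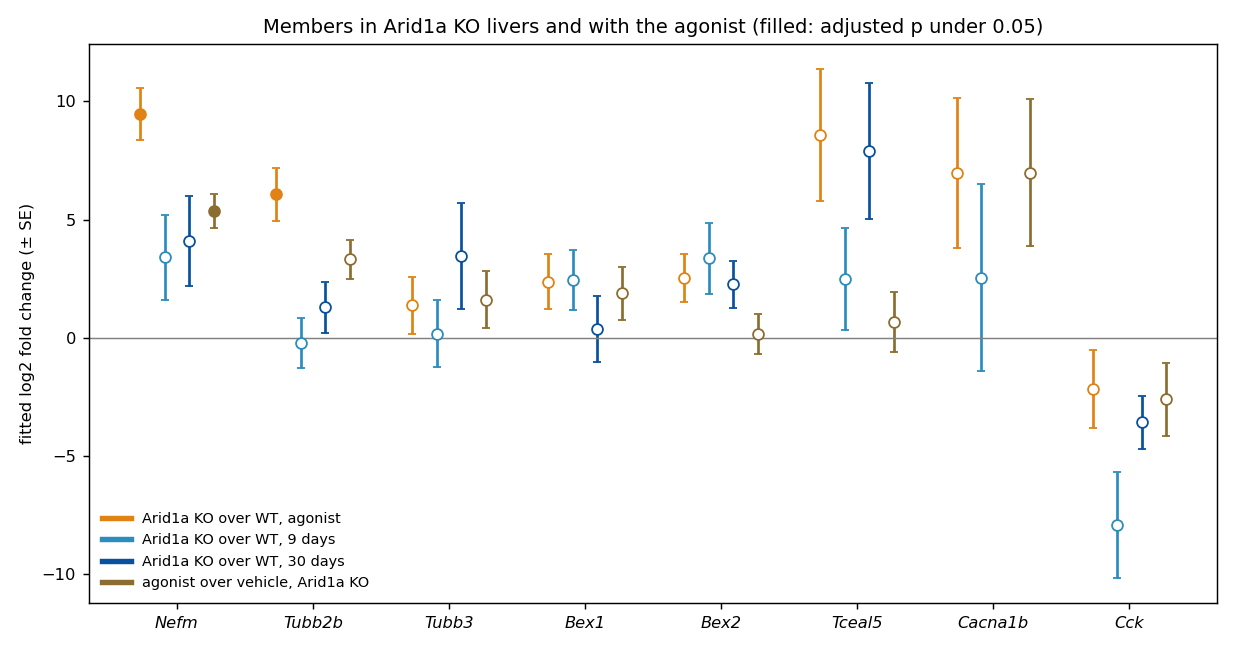
Fitted log2 fold change with its SE for the 8 members that passed the filter, in Arid1a KO over WT livers with agonist, at 9 days and at 30 days, and in agonist over vehicle in Arid1a KO livers; filled points have an adjusted p under 0.05. Nefm and Tubb2b are filled at 9.46 and 6.06 in Arid1a KO over WT with agonist, and Cck lies below 0 in all comparisons; fits against a group with no count (Nefm and Cacna1b against WT, Tceal5 against WT at 30 days and with agonist, Cacna1b over vehicle, Cck at 9 days and Tubb3 against WT at 30 days) depend on the fitted offset and are not bounds.

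The summed level of the 10 members was 55.2 and 64.0 CPM in Arid1a/b DKO livers, 473 and 357 CPM in tumours, 18.0 and 8.28 CPM in Arid1a KO agonist livers, 1.03 to 5.47 CPM in vehicle-treated Arid1a KO livers and 0.880 to 8.76 CPM in WT livers. The highest WT value, 8.76 CPM at 30 days, is mostly Cck. In DKO livers Nefm and Tubb2b made up most of the sum, and in tumours Bex1 was the largest part. Per length, Tubb2b came first in agonist-treated Arid1a KO livers at 1.99 ± 1.91 CPM per kb, ahead of Tceal5 at 1.56 ± 0.240, Bex2 at 1.40 ± 0.112 and Nefm at 0.650 ± 0.352 (SD, n = 2 each). The first 3 do not differ beyond their spread.

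Other neuronal genes were followed in 9 lists of 134 genes that leave out the members. The lists include genes that WT livers express, among them several of 11 other tubulins. In 9-day WT livers Tubb5 had 63.0 and 88.5 CPM and Tubb4b had 87.6 and 117 CPM. The counts below are therefore not all of ectopic genes. In Arid1a/b DKO livers 27 of the 67 tested were higher and 2 lower than in WT livers, beside 12.6% and 13.8% of all genes. Other tubulins gave 5 of the 27 higher and 1 of the 2 lower. Of these 67, 11 passed the filter only through the DKO libraries. Of the 56 that pass without them, 22 were higher and 2 lower, or 39.3% and 3.6%, beside 12.4% and 14.7% of all genes that pass so. Their median log2 fold change was 0.76, against -0.02 over those genes. Npy, the neuropeptide Y precursor, had 3.85 and 2.53 CPM in DKO livers and 0 in both 9-day WT livers (log2 9.25). Calca, the calcitonin and CGRP precursor, had 24 and 32 counts in DKO livers and 0 in 9-day WT livers (log2 6.71). Both passed the filter only through the DKO libraries, so they had to differ and are described without a test. Nes, the intermediate filament nestin, was higher (log2 2.29, adjusted p = 0.00669). So were Map1a (2.67), a protein of microtubules, and Cacnb3 (2.49), a calcium channel beta subunit. Dclk1 (3.61), also a protein of microtubules, passed the filter only through the DKO libraries, so it had to differ. Syt1, the calcium sensor of synaptic vesicles, was lower (log2 -1.91, SE 0.35, adjusted p = 0.00310), at 4.28 and 2.04 CPM in DKO livers and 10.9 and 12.7 CPM in 9-day WT livers.

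By list, and among genes that pass the filter without the DKO libraries, 4 of 6 tested genes of neuronal microtubules and growth cones, 5 of 10 other tubulins, 3 of 12 other calcium channel subunits and 3 of 7 general neuronal genes were higher in Arid1a/b DKO than in WT livers. Among those tubulins 1 was lower. Of the other Bex and Tceal genes 2 of 5, and of other intermediate filament genes 1 of 3, were higher. Of 10 genes of synaptic release 2 were higher and 1 lower, with a median log2 fold change of -0.56. Of 26 neuropeptides and their processing enzymes 5 were tested and 4 were higher, but 3 of the 5 passed only through the DKO libraries. Npy and Calca are among these 3 and have no count in the 9-day WT livers. Of 17 proneural transcription factors 2 were tested and none was called. Against 9-day Arid1a KO livers 22 of 67 neuronal genes were higher and 2 lower, beside 9.92% and 12.1% of all genes. Of the 56 that pass without the DKO libraries, 17 were higher and 2 lower. Among these, 3 of 6 genes of microtubules and growth cones and 6 of 10 other tubulins were higher. Of 12 other calcium channel subunits 2 were higher and 1 lower, and none of 7 general neuronal genes was called. The 29 calls against WT became 9 without WT 9-day replicate 1, 16 without WT 9-day replicate 2 and 19 without DKO replicate 1, and 19 with all 16 libraries or with only the compared libraries in the fit. The 24 calls against Arid1a KO became 8 without 9-day Arid1a KO replicate 1 and 6 without replicate 2.

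Single loss of Arid1a without agonist called none of the 67 neuronal genes at 9 or at 30 days in the edgeR fit. Over all genes 0.566% and 0.516% were called in either direction. At an unadjusted p under 0.05 there were 6 and 7 of the 67, beside 1893 and 1681 of all 17831 genes. DESeq2 called 0 at 9 days and 1 at 30 days. With the agonist 3 of 67 were higher in Arid1a KO than in WT livers, beside 3.05% of all genes called higher and 1.91% lower. This count is near the share over all genes. The 3 were Tceal8, Tceal9 (log2 0.99, adjusted p = 0.0320) and Cacnb3 (log2 2.71, SE 0.58, adjusted p = 0.0254). The median log2 fold change of the 67 was 0.53. Leaving out any of the 4 libraries left between 0 and 2 calls. Cacnb3 had 3.09 and 2.58 CPM in Arid1a KO agonist livers and 0.484 and 0.400 CPM in WT agonist livers.

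In tumours 38 of 76 tested neuronal genes were higher and 2 lower than in vehicle-treated Arid1a KO livers, beside 18.0% and 15.2% of all genes. Of the 67 that pass the filter without the tumours, 30 were higher and 2 lower, with a median log2 fold change of 1.64, against -0.04 over all genes that pass so. Against vehicle-treated WT livers 45 of 76 were higher and 3 lower, beside 20.5% and 16.1% of all genes, and 38 of those 67 were higher and 3 lower. Of the other Bex and Tceal genes 6 of 6 tested, 1 of them passing the filter only through the tumours, and of the other tubulins 8 of 11 were higher than in Arid1a KO livers. Cacna1c, the pore of the cardiac and neuronal L-type channel, had 11.1 and 3.69 CPM in tumours, against 0.182 to 0.370 CPM in vehicle-treated Arid1a KO livers (log2 4.71, adjusted p = 0.000339). Slc17a6, the vesicular glutamate transporter VGLUT2, had 23 and 18 counts in tumours and none in vehicle-treated livers (log2 8.28). It passed the filter only through the tumours, so it had to differ and is described without a test. These counts depended on the tumour replicate left out. Against Arid1a KO and against WT livers, fewer neuronal genes were higher without tumour replicate 1 than without tumour replicate 2. None was lower without replicate 2, and some were lower without replicate 1. Over all genes tested, fewer were likewise higher without replicate 1. Such fits leave 1 tumour library.

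**Figure D4:**
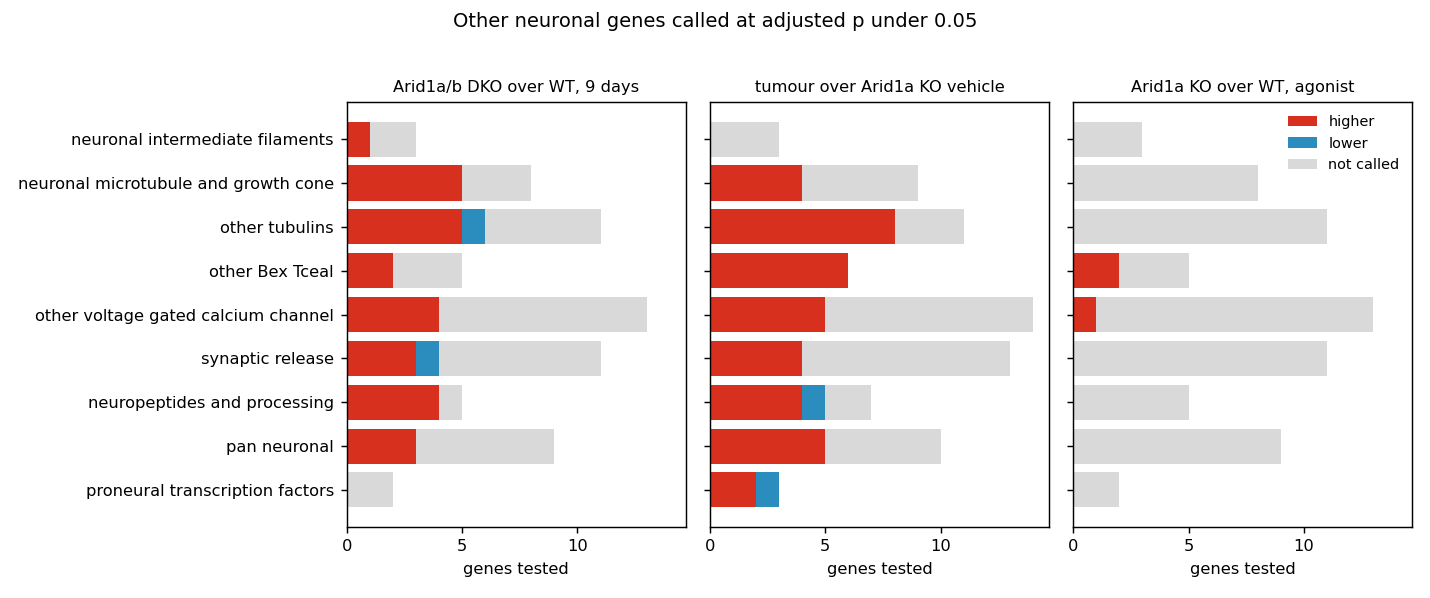
Number of tested genes of 9 neuronal lists called higher (red), lower (blue) or not called (grey) at an adjusted p under 0.05, in Arid1a/b DKO over WT livers at 9 days, in tumours over vehicle-treated Arid1a KO livers and in Arid1a KO over WT livers with agonist. In all, 27 of 67, 38 of 76 and 3 of 67 genes were higher, among them 5, 8 and 0 other tubulins.

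Rest, the repressor of neuronal genes, was expressed in every library. It had 31.8 and 35.4 CPM in Arid1a/b DKO livers, 32.8 and 35.5 CPM in 9-day Arid1a KO livers and 26.4 and 28.5 CPM in 9-day WT livers, with no call (DKO against WT log2 0.30, adjusted p = 0.162). In tumours it had 17.2 and 23.9 CPM and was lower than in vehicle-treated Arid1a KO livers (log2 -0.73, SE 0.16, adjusted p = 0.00567). Of 12 tested genes of REST and its partners, 1, Kdm1a (log2 0.79), was higher in DKO than in WT livers, and 3 were higher and 5 lower in tumours than in Arid1a KO livers. Over all genes 12.6% were higher and 13.8% lower in the first comparison, and 18.0% and 15.2% in the second. Dpf1, a BAF subunit of neurons, was higher in DKO than in WT livers (log2 3.18, SE 0.77, adjusted p = 0.0146), at 1.24 and 1.43 CPM against 0 and 0.223 CPM. Whether Dpf1 passes the filter on low counts without the DKO libraries was not checked, so its test only describes the gene.

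Markers of other cells moved with some of these groups. The summed level of 12 stellate cell and fibroblast markers was 2144 and 1061 CPM in Arid1a/b DKO livers, 956 and 511 CPM in Arid1a KO agonist livers, 372 and 231 CPM in tumours, 438 and 439 CPM in 9-day Arid1a KO livers and 306 and 381 CPM in 9-day WT livers. Of these 12, 7 were higher and none lower in DKO than in WT livers, while in tumours 3 were lower and none higher than in Arid1a KO livers. Over all genes 12.6% were higher and 13.8% lower in DKO than in WT livers, which also stands beside the marker counts below. In tumours against Arid1a KO livers the shares were 18.0% higher and 15.2% lower. The 10 macrophage markers summed to 2500 and 1423 CPM in DKO livers, to 1086 and 630 CPM in Arid1a KO agonist livers, to 737 and 1661 CPM in 9-day Arid1a KO livers and to 594 and 1156 CPM in 9-day WT livers, with 3 of 10 higher in DKO than in WT livers. Of the cholangiocyte markers 3 of 8 were higher and 1 lower in DKO than in WT livers, of the endothelial markers 2 of 8 were higher, and of the 7 lymphocyte markers none was called. Calls of 2 or 3 markers in lists this short are few to set beside 12.6%. Pancreatic exocrine markers summed to 9.06 and 2.62 CPM in Arid1a KO agonist livers, to 7.71 and 12.7 CPM in tumours and to 0.402 to 2.40 CPM in WT livers. Of 8 hepatocyte markers 6 were lower in DKO than in WT livers, at sums of 13739 and 12402 CPM against 37779 and 16088 CPM. The part of stellate cells and macrophages in the levels of Nefm, Tubb2b, Tubb3 and Bex2 in DKO and agonist livers was not tested.

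Markers of peripheral neurons, which could bring neuronal RNA into whole liver, were near 0. The 8 markers summed to 2.08 and 0.673 CPM in Arid1a/b DKO livers and to 2.98 and 2.32 CPM in 9-day WT livers, and Th, Slc6a2 and Chat had no count in either DKO library. In tumours they summed to 8.17 and 1.01 CPM, with only Th at 0 in replicate 1 and 6 of 8 at 0 in replicate 2. The Schwann cell markers summed to 106 and 113 CPM in DKO livers, the lowest of all libraries, and to 145 and 222 CPM in 9-day WT livers. Sox10 and Foxd3 were at 0 in both DKO libraries. Sox10, S100b, Cdh19 and Foxd3 were all at 0 in DKO replicate 1 and in 30-day WT replicate 1, at sums of 106 and 303 CPM. Those sums come from the other listed genes and need not follow Schwann cells. Of 4 tested markers, 2 were higher in DKO than in WT livers, beside 12.6% of all genes. Markers of enteroendocrine and islet cells, which make Cck in gut, summed to 1.82 and 0.337 CPM in DKO livers and to 0 in 9-day WT livers. Of the 9, only Sct entered the fit (log2 7.65). It passed the filter only through the DKO libraries, so it had to differ. The part of enteroendocrine and islet cells in the Cck level was not tested. Nor was the part of the 8.17 CPM of neuronal markers in the Nefm, Nefh and Tubb3 levels of tumour replicate 1.

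**Figure D5:**
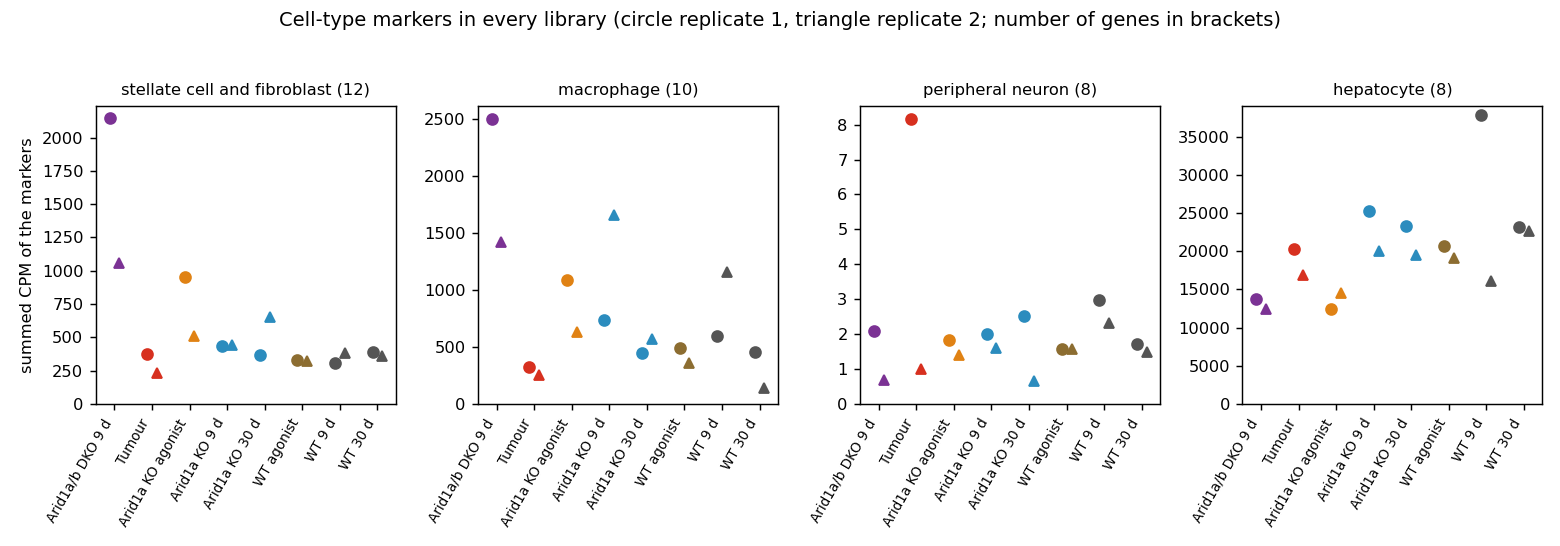
Summed CPM of the markers of stellate cells and fibroblasts, macrophages, peripheral neurons and hepatocytes in every library; circles are replicate 1 and triangles replicate 2, with groups in the order Arid1a/b DKO, tumour, Arid1a KO and WT. Stellate markers stand at 2144 and 1061 CPM in DKO livers, while peripheral neuron markers stay below 3 CPM in all libraries but tumour replicate 1.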

How the data were processed

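Polyadenylated RNA of 14 livers and 2 tumours was sequenced. Reads were trimmed with fastp, aligned by STAR 2.7.3 (build GRCm38.p6) and assigned to genes by featureCounts, per the submitters' processing notes. No source used here gives the strand setting or annotation release. The authors deposited raw counts per gene and a table of normalized signal, which equals the counts times 1 factor per library. Levels here are CPM after TMM scaling over 16 libraries.

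Counts were fitted with edgeR 4.0.16 (R 4.3.3; quasi-likelihood F test, filterByExpr, Benjamini-Hochberg adjustment over all genes, threshold 0.05). The liver fit held 14 libraries in 7 groups and 17831 genes. The tumour fit held 16 libraries and 18193 genes, and set tumours against the mean of the 9-day and 30-day vehicle groups. Each SE is |log2 fold change| over the root of F. The script was tested on simulated data. Folds against a group without counts use a floor of 3 counts over the group; ratios carry 95% exact counting intervals, which cover counting error only. Alternatives were other scaling, no filter, DESeq2 1.42.0, limma-trend 3.58.1 on log2 of the deposited normalized signal plus 1, a replicate block, other sets of libraries in the fit, and leaving out each library. The labels call the libraries biological replicates without naming animals, so p-values measure the spread between libraries, which may be partly technical.

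The members and lists were chosen with earlier results of these data known. Named were all members, up to 3 called genes with the smallest p of each list and comparison, the 3 genes most like Nefm, Cck, Tubb2b and Bex1, and Arid1a and Arid1b. Counts of genes that pass the filter without the DKO or tumour libraries were added after seeing the data and use the same fits. Annotation is GENCODE M21 (GRCm38), which matched 96.4% of the 55291 symbols.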

Additional observations from a re-analysis of the deposited data

How the results depend on the processing

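Depth limits the rare members: Nefl, Nefh, Cacna1b, Bex1 and Tubb3 rest on at most 68 counts in any liver, and 2 libraries a group leave few degrees of freedom. Without a filter on low counts, members called numbered 4 in Arid1a/b DKO over WT, 3 in DKO over Arid1a KO, 1 and 2 in Arid1a KO over WT at 9 and 30 days, 5 with agonist, 1 and 4 for agonist in WT and Arid1a KO, 1 for the difference of agonist effects, and 5 in each tumour comparison. Other neuronal genes then numbered 2 and 2 in Arid1a KO over WT at 9 and 30 days, 15 with agonist, 1 and 8 for agonist in WT and Arid1a KO, 3 for the difference, and 84 and 89 in tumours over Arid1a KO and WT. DESeq2 called 1 member each at 9 and 30 days and 2 for agonist in Arid1a KO, with 1 other neuronal gene at 30 days, 8 with agonist, 2 for agonist in Arid1a KO and 2 for the difference. Over all 33901 genes, the liver fit without a filter called 490 higher and 528 lower in Arid1a KO over WT at 9 days. At 30 days it called 586 and 356, and with agonist 1522 and 946. DESeq2 called 258 higher and 229 lower of 17831 genes at 9 days, 242 and 179 at 30 days, and 1044 and 811 with agonist. With limma-trend there were 5 other neuronal genes with agonist and 2 for agonist in Arid1a KO. With all 16 libraries in the fit, members numbered 1 in DKO over WT, 0 in DKO over Arid1a KO, 1 with agonist and 0 for agonist in Arid1a KO, and other genes 19 in DKO over WT. With only the compared libraries, members and other genes both numbered 0 for agonist in Arid1a KO, and other genes numbered 19 in DKO over WT, 24 in tumours over Arid1a KO and 28 over WT. Leaving out 1 library gave members from 0 to 2 in DKO over WT, 0 to 1 in DKO over Arid1a KO, 0 to 2 with agonist and for agonist in Arid1a KO, 2 to 5 in each tumour comparison and 0 elsewhere; other genes gave 9 to 26, 6 to 21, 0 to 2, 0 to 1, 27 to 79 over Arid1a KO, 30 to 84 over WT, and 0 to 1 for the difference. Leaving out 1 library, the log2 difference of tumours from Arid1a KO ranged from -3.74 to 6.60 for Nefm, -0.021 to 7.12 for Tubb3, -1.26 to 6.13 for Dclk1, -3.50 to 5.89 for Dpysl5, -0.55 to 4.75 for Celf4, -0.46 to 3.87 for Pou4f1, -4.17 to 6.03 for Insm1 and -0.26 to 3.30 for Sox9, and from WT 0 to 9.71 for Nefm, -1.18 to 8.16 for Insm1 and -0.23 to 4.11 for Pou4f1, each lowest without tumour replicate 1, and -1.35 to 5.99 for Sct, lowest without tumour replicate 2. The labels do not say what replicate numbers mark, and replicate 1 is the shallower library in all 8 groups. Correlations of same-numbered deviations ran from -0.0933 to 0.445, above 0.1 in each single-loss and agonist comparison and not in the DKO ones, so the block is given as an alternative; the replicate block left 2 members called in DKO over WT and 28 other genes, with no count moved by over 1.5 times. RLE scaling moved no count that far. Where a call changed, the cause was not tested.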
